A study of Mus musculus with 14 samples.

Results

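The 7 genes described here encode 4 subunits of voltage-gated sodium channels (Scn4b, Scn4a, Scn3b and Scn2b) and 3 connexins of gap junctions (Gja1, Gja5 and Gjc1). They were taken by name, with earlier results of these data known, as 7 of the 18138 gene rows of an array experiment on mouse heart. The rows carry the names SCN4B, SCN4A, SCN3B, SCN2B, GJA1 and GJA5, while Gjc1 was found under its older name, GJA7. Of the 7, 5 passed the detection filter and were tested among 9408 rows, while Scn3b and Scn2b did not. RNA came from left ventricles of male mice of 2 substrains of the same inbred strain, C57Bl/6J and C57Bl/6N, and was hybridised to Illumina arrays. Of 14 arrays, 3 per substrain held sham-operated controls and 4 per substrain held mice given angiotensin II for 48 h. This peptide of the renin-angiotensin system constricts vessels and loads the heart, and implanted osmotic mini-pumps released it subcutaneously. The dose is stated as 500 ng/kg, per minute in one place and per hour in another, and the labels give no ages. Nor do they say that each sample is 1 mouse of its own, so the p-values rest on the spread among samples, which may be technical.

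A cardiac sodium channel is a pore-forming alpha subunit that opens at the start of the action potential, joined by smaller beta subunits that alter its gating and its place in the membrane. Connexins assemble into gap junctions, channels that join neighbouring heart muscle cells end to end and let the electrical impulse pass from cell to cell. In the mouse ventricle the working muscle mainly uses the connexin Gja1, while Gja5 and Gjc1 are best known from the conduction system.

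Levels are given as log2 intensity after background correction, an added offset of 16 and quantile normalisation, and only values of the same gene are set against each other. On this scale the lowest level of a detected row was 5.42 to 5.61, depending on the array. The share of rows detected per array was 46.4% to 49.3%, and the lowest correlation between arrays of 1 group was 0.976. One array stood apart: angiotensin II replicate 1 of C57Bl/6J had 302 tested rows more than 1 log2 unit from the mean of the other arrays of its group, against at most 90 on any other array. A gene is called higher or lower where limma's Benjamini-Hochberg adjusted p over the 9408 rows was under 0.05. The cardiomyocyte list (14 of 15 genes in the table) was above background on all 14 arrays for all 14 genes. The list for the atrial chamber had 7 of its 9 genes above background on all arrays, with Bmp10 above background on none.

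Scn4b was lower after angiotensin II in C57Bl/6N, and lower in C57Bl/6N than in C57Bl/6J among mice given angiotensin II. Its fall in C57Bl/6N was 3.06-fold (95% interval 2.18 to 4.29), and among mice given angiotensin II its level in C57Bl/6N was 3.25-fold below that in C57Bl/6J. The other 4 tested genes had no call in either of those comparisons, which share the C57Bl/6N angiotensin II arrays. Gja1, the main connexin of ventricular muscle, had a 95% interval of -0.33 to 0.18 on the log2 scale for the change in C57Bl/6N.

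Scn4b encodes beta 4, a subunit with a single membrane span that is bound to the alpha subunit by a disulphide bridge. It lies on chromosome 9 of GRCm38.p6 (chr9:45138624-45154155), and its relative Scn2b starts 20748 bases away on the same strand (chr9:45117876-45130070). The 250 bases before each start, from RefSeq's table for that build, are shown because these neighbours differed in whether they could be measured. They are chr9:45138374-45138623 for Scn4b and chr9:45117626-45117875 for Scn2b, both on the plus strand.
Scn4b: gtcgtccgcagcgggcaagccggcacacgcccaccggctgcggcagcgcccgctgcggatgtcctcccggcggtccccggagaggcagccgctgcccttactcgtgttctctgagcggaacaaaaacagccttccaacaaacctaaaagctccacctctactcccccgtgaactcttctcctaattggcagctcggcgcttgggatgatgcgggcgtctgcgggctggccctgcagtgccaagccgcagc
Scn2b: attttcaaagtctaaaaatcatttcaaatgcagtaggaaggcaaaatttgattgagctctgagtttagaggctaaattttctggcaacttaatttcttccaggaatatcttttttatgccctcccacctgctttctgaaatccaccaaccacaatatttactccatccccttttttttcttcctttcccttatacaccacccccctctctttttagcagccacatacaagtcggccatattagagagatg
The bases G and C make up 66% of the Scn4b stretch and 38.4% of the Scn2b stretch. Both strands were searched for the TATA box as TATAAA, for the GC box as GGGCGG, for the core of T-box factor sites as GGTGTGA, for NKX2-5 sites as TNAAGTG and for GATA factor sites as AGATAA. Neither stretch holds any of them, so no letters are in capitals. Among 32851 promoters of the same length, these motifs were found in 12.4%, 32.7%, 3.33%, 10.1% and 9.99%, in that order. A promoter was in the table for 5 of the 7 genes, the others being Scn3b and Gjc1.

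In C57Bl/6J sham arrays, Scn4b read 9.75, 9.48 and 9.32 on the log2 scale. After angiotensin II the 4 C57Bl/6J arrays read 8.33, 8.88, 8.57 and 8.90. Every treated array therefore lay below every sham array, and the group means were 9.52 ± 0.22 (SD, n = 3) and 8.67 ± 0.27 (SD, n = 4). In C57Bl/6N the sham arrays read 8.26, 8.46 and 9.03, and the angiotensin II arrays 7.16, 7.23, 6.33 and 7.16. Here too the groups did not overlap, with means of 8.58 ± 0.40 (SD, n = 3) and 6.97 ± 0.43 (SD, n = 4). The order of the 4 groups was thus C57Bl/6J sham, C57Bl/6J angiotensin II, C57Bl/6N sham and C57Bl/6N angiotensin II, from high to low. The middle pair overlapped, and every other pair of groups was fully separated. Scn4b was above background on 14 of 14 arrays, with deposited intensities of 172 to 956.

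**Figure D1:**
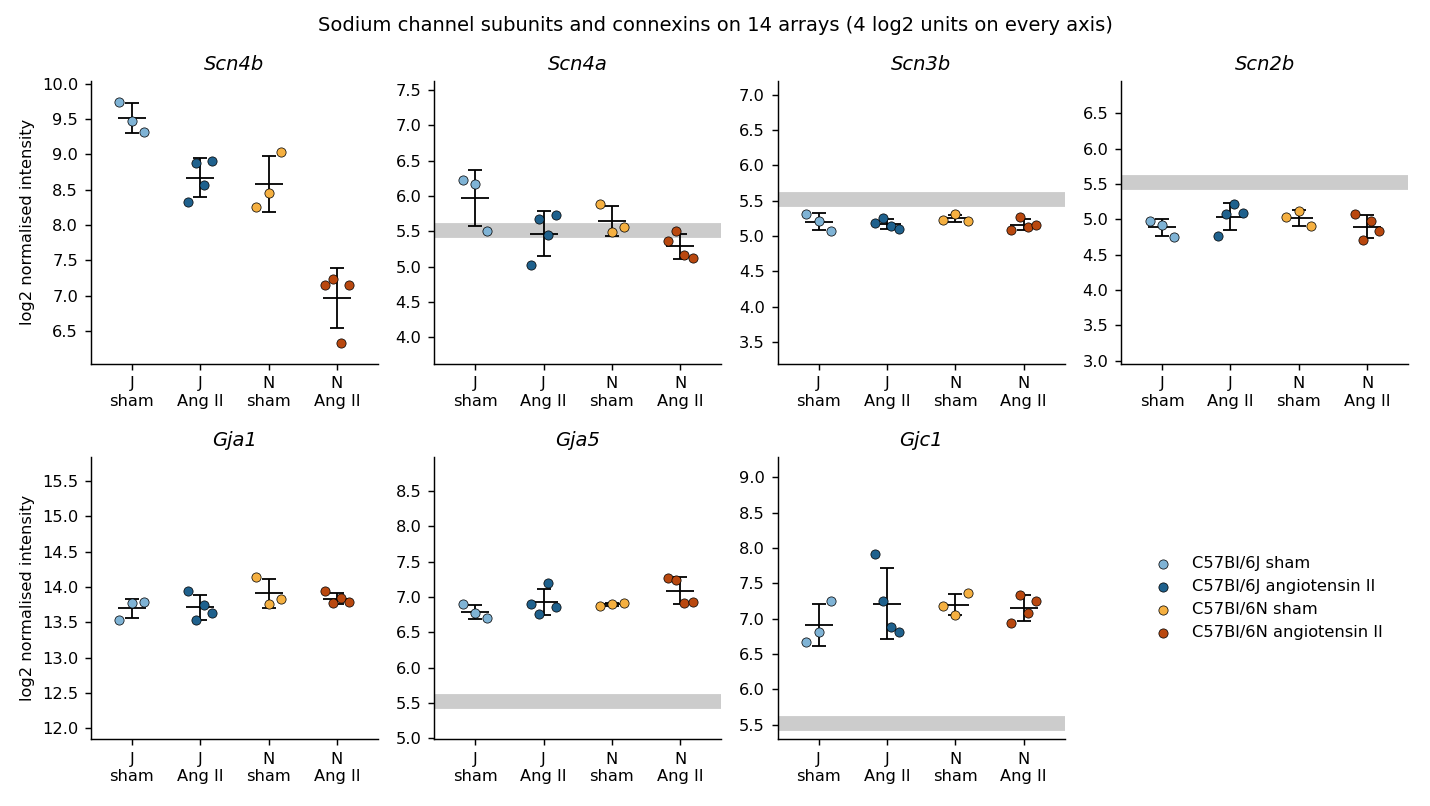
Log2 normalised intensity of the 7 genes (vertical axis, 4 log2 units in every panel) on each of the 14 arrays, by group (horizontal axis), with the mean and SD of each group and a grey band for the lowest level of a detected row, 5.42 to 5.61. The 4 Scn4b groups step down from 9.52 in C57Bl/6J sham to 6.97 in C57Bl/6N angiotensin II, while Scn3b and Scn2b stay below the band.

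In C57Bl/6N, Scn4b fell by 1.61 ± 0.23 on the log2 scale (SE; 95% interval -2.10 to -1.13; limma adjusted p = 0.000475). It was 1 of the 5 tested genes called in that comparison, where 17.4% of all tested rows were called and 7.92% were called lower. Its change was number 3 of 9408 from the lowest. In C57Bl/6J the difference was -0.85 ± 0.23 (SE; 95% interval -1.33 to -0.36) with an adjusted p of 0.0855, so it was not called there. None of the 5 genes was called in C57Bl/6J, against 1.37% of all rows. In that substrain the Scn4b difference ranked number 18 from the lowest, and 1437 rows had an unadjusted p under 0.05.

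The C57Bl/6J difference of Scn4b lay close to the threshold. It was called when background was inferred from all rows (adjusted p = 0.0437), with median scaling (0.0415), with array weights (0.0339) and without C57Bl/6N angiotensin II replicate 3 (0.0346). Without the C57Bl/6J array that stood apart it was -0.73 (adjusted p = 0.168). Over all single arrays left out its adjusted p ran from 0.0346 to 0.324.

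The difference between the 2 responses of Scn4b was tested directly and was not called. It was -0.77 ± 0.32 log2 units (SE; 95% interval -1.46 to -0.08), with an unadjusted p of 0.0312 and a limma adjusted p of 0.242. With background inferred from all rows its sign turned, to 0.13. None of the 5 genes was called for this difference, and 0.0106% of all rows were. Averaged over the substrains, Scn4b fell by 1.23 ± 0.16 (SE; 95% interval -1.57 to -0.89; limma adjusted p = 0.000216), the lowest averaged change among the 9408 rows. This average and the C57Bl/6N response share their arrays.

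Scn4b also differed between the substrains under the same treatment. With angiotensin II the log2 difference, C57Bl/6N minus C57Bl/6J, was -1.70 ± 0.21 (SE; 95% interval -2.15 to -1.25; limma adjusted p = 0.00082), and 9.24% of all rows were called in that comparison, with 3.78% called lower in C57Bl/6N. Among sham arrays the difference was -0.93 ± 0.24 (SE; 95% interval -1.45 to -0.41). It was not called, with an unadjusted p of 0.0017 and an adjusted p of 0.314, in a comparison that called 0.0213% of rows. The Scn4b groups did not overlap in any of these 4 comparisons, and it was the 1 gene of 5 for which this held. Over all tested rows the same full separation in the lower direction was found for 9.19% in C57Bl/6J, 15.5% in C57Bl/6N, 7.61% between sham groups and 7.26% between angiotensin II groups.

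The 2 called comparisons of Scn4b kept their call in each of the 11 other settings tried and without each of the 14 arrays in turn. The size depended on the background step: with background inferred from all rows the C57Bl/6N response was -0.73, the averaged response -0.79 and the difference under angiotensin II -0.78. Without C57Bl/6N angiotensin II replicate 3, the lowest Scn4b array, the C57Bl/6N response was -1.40 (adjusted p = 0.000914) and the difference under angiotensin II was -1.49 (adjusted p = 0.00111).

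**Figure D2:**
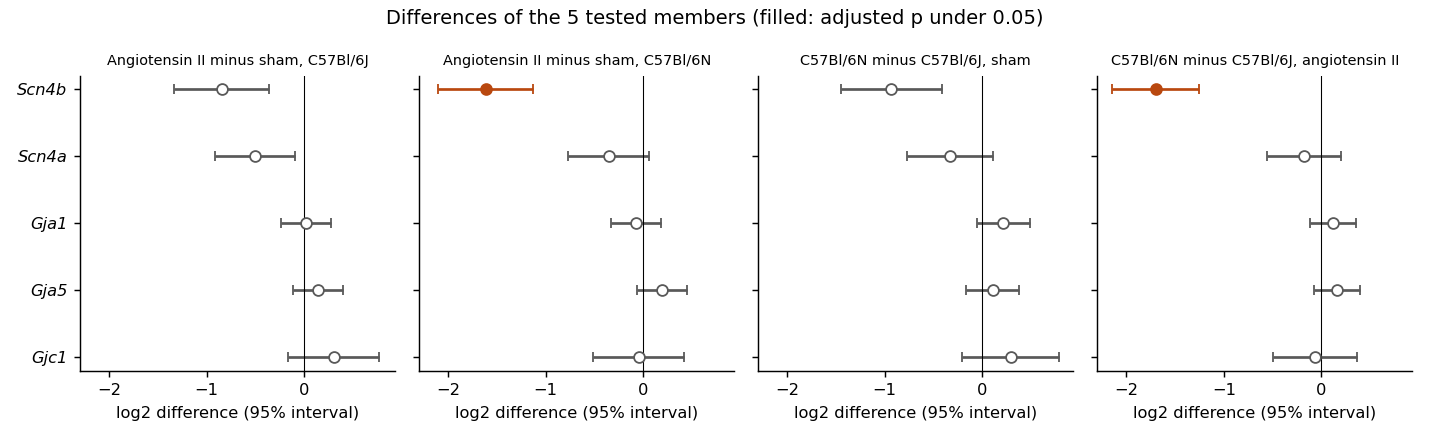
Log2 difference with its 95% interval (horizontal axis) for the 5 tested genes in 4 comparisons, with filled points where the limma adjusted p was under 0.05. Scn4b lies below 0 in all 4 comparisons and is filled at -1.61 for the C57Bl/6N response and at -1.70 for C57Bl/6N minus C57Bl/6J under angiotensin II.

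Whole ventricle was measured, so fewer cells of a type and less RNA per cell cannot be told apart. The summed level of the 14 cardiomyocyte genes, on the linear normalised scale, was 322916 to 342819 in C57Bl/6J sham, 332391 to 349647 with angiotensin II, 340266 to 374576 in C57Bl/6N sham and 309126 to 334618 with angiotensin II. Their median change in C57Bl/6N was -0.20 on the log2 scale, with none called higher and 1 of 14 called lower, against -1.61 for Scn4b. In C57Bl/6J their median was 0.02. Of all tested rows, 17.4% were called in C57Bl/6N and 7.92% were called lower there. The macrophage list moved in C57Bl/6N as well, with 11 of its 13 tested genes called higher and a median change of 0.68. The summed level of the 15 macrophage genes was 9010 to 10446 in C57Bl/6J sham, 8779 to 10703 with angiotensin II, 7343 to 9989 in C57Bl/6N sham and 10517 to 22973 with angiotensin II; Itgam was above background on no array. Among the 4 C57Bl/6N angiotensin II arrays, replicate 3, with the lowest Scn4b (6.33), had a cardiomyocyte sum of 309126 and a macrophage sum of 21874. Replicate 4 had the highest cardiomyocyte sum, 334618, and the lowest macrophage sum, 10517, and its Scn4b was 7.16. Replicate 1 had the same Scn4b level, 7.16, with sums of 313925 and 22973, and replicate 2 read 7.23 with 333861 and 16360.

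Other cell type lists had calls in C57Bl/6N too, where 17.4% of all tested rows were called. Of 13 tested fibroblast genes, 6 were called higher and 1 lower, with a median change of 0.49. The summed level of the 15 fibroblast genes in the table was 16582 to 17282 in C57Bl/6J sham, 17703 to 20595 with angiotensin II, 15434 to 18095 in C57Bl/6N sham and 19256 to 22796 with angiotensin II, and Postn and Ddr2 were above background on no array. Of 12 tested smooth muscle and pericyte genes, 4 were called higher and 2 lower, with a median of 0.13. Their summed level, over 13 genes in the table, was 19918 to 22142 in C57Bl/6J sham, 22900 to 27542 with angiotensin II, 19832 to 22307 in C57Bl/6N sham and 24711 to 28334 with angiotensin II, and Cnn1 was above background on no array. The smooth muscle and pericyte sum follows its brightest genes, and in C57Bl/6J it rose while the list's median change was -0.11. Which of its genes carried the rise in either substrain, and in which cells they were made, was not tested. Of 12 tested endothelial genes 1 was called lower, and of 6 tested nerve and Schwann cell genes 1 was called higher. Of all 9408 tested rows, 745 (7.92%) were called lower and 889 higher, so 1 call in a list this small says little. The summed level of the 15 endothelial genes was 17102 to 18595 in C57Bl/6J sham and 16083 to 17555 with angiotensin II. In C57Bl/6N it was 17209 to 17876 in sham and 14856.5 to 17629 with angiotensin II, and Kdr, Fabp4 and Erg were above background on no array. In C57Bl/6J, where 1.37% of all tested rows were called, 2 fibroblast genes and 1 smooth muscle and pericyte gene were called higher. The part of cell composition in the Scn4b result was not tested.

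Scn4a, the pore-forming sodium channel of skeletal muscle, was at the edge of detection. It was above background on 6 of 14 arrays: 2 of 3 C57Bl/6J sham arrays, 2 of 4 with angiotensin II, 1 of 3 C57Bl/6N sham arrays and 1 of 4 with angiotensin II. The C57Bl/6J sham arrays read 6.23, 6.18 and 5.51 and the angiotensin II arrays 5.02, 5.67, 5.45 and 5.72. In C57Bl/6N the sham arrays read 5.89, 5.49 and 5.56 and the angiotensin II arrays 5.36, 5.51, 5.17 and 5.12. In each substrain the higher sham arrays lay above all treated arrays, but the groups overlapped. The differences were -0.50 ± 0.19 in C57Bl/6J (SE; limma adjusted p = 0.232) and -0.36 ± 0.19 in C57Bl/6N (SE; limma adjusted p = 0.227). Between the substrains Scn4a had no call either, at -0.33 in sham and -0.18 with angiotensin II.

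Averaged over both substrains, Scn4a fell by 0.43 ± 0.14 on the log2 scale (SE; 95% interval -0.72 to -0.14; limma adjusted p = 0.0444). With Scn4b this made 2 of 5 genes called lower on average, where 15.8% of all rows were called and 7.48% were called lower. The size depended on the processing, at -0.04 with background inferred from all rows and -0.24 with no background correction. The Scn4a call was lost in 6 of 9 other settings, at adjusted p up to 0.102. It held without C57Bl/6J sham replicate 3 (0.0126), C57Bl/6J angiotensin II replicate 2 (0.0444) or 4 (0.0376), or C57Bl/6N angiotensin II replicate 2 (0.0434). It was lost without any one of the other 10 arrays, with adjusted p of 0.0525 to 0.12. Of 18 skeletal muscle genes in the table, 12 were above background on no array, among them the fast myosins Myh1, Myh2 and Myh4. The summed level of the 18 was 680 to 817 in C57Bl/6J sham, 835 to 1117 with angiotensin II, 669 to 770 in C57Bl/6N sham and 831 to 984 with angiotensin II. Of the 7 tested, 1 was called higher in C57Bl/6J, 2 in C57Bl/6N and 2 on average, and 0 lower. The shares of all tested rows called were 1.37%, 17.4% and 15.8%. The medians of the 7 were -0.03, -0.02 and -0.02.

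Scn3b and Scn2b encode beta 3, which binds the alpha subunit without a covalent link, and beta 2, which like beta 4 is disulphide-linked. Neither was above background on any of the 14 arrays. Scn3b read 5.07 to 5.31 and Scn2b 4.70 to 5.21 on the log2 scale, and their detection p-values ran from 0.0706 to 0.42 and from 0.109 to 0.496. The groups overlapped for both genes, and no change is given for either. When all 18138 rows were tested without a filter, neither was called in any of the 6 comparisons, the lowest adjusted p being 0.488 for Scn3b in C57Bl/6N. These values show only that the arrays could not measure these transcripts.

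Gja1 encodes connexin 43, the main gap junction protein of working ventricular muscle, at chr10:56377300-56390419. Its deposited intensity was 9969 to 19151. The 250 bases before its start (chr10:56377050-56377299, plus strand) are shown with those of Gja5 (chr3:97032152-97032401, plus strand), since these connexins had 1 motif match each. Capitals mark the match.
Gja1: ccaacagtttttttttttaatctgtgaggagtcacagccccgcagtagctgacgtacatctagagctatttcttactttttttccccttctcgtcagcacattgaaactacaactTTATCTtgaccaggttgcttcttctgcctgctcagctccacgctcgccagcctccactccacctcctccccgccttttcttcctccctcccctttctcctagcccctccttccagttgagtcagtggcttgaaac
Gja5: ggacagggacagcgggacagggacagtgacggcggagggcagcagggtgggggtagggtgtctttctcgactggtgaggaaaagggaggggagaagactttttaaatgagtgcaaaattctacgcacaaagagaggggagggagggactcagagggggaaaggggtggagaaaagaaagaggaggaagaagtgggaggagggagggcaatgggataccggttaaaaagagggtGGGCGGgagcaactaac
In Gja1 it is AGATAA on the minus strand, 135 bases before the start, and in Gja5 it is GGGCGG on the plus strand, 17 bases before the start. Each match is a description of the letters.

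Gja1 read 13.54, 13.77 and 13.78 on the C57Bl/6J sham arrays and 13.95, 13.54, 13.74 and 13.63 with angiotensin II. In C57Bl/6N it read 14.15, 13.76 and 13.83 in sham and 13.94, 13.77, 13.85 and 13.78 with angiotensin II. All 4 groups overlapped one another. The response was 0.02 in C57Bl/6J (95% interval -0.24 to 0.27) and -0.08 in C57Bl/6N (95% interval -0.33 to 0.18), with limma adjusted p of 0.962 and 0.708. The sign of these small differences changed with array weights and with single arrays left out. As folds, the intervals ran from 0.847 to 1.21 in C57Bl/6J and from 0.793 to 1.13 in C57Bl/6N. With the main settings, a change of Gja1 as large as the lower bound of the Scn4b fall, 2.18-fold, lay outside them. With background inferred from all rows the Scn4b change was smaller, at -0.73. Whether signals as bright as those of Gja1 are compressed was not tested. Between the substrains Gja1 differed by 0.22 in sham (95% interval -0.06 to 0.49) and by 0.12 with angiotensin II (95% interval -0.12 to 0.36), neither of which was called.

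Gja5 encodes connexin 40, found in atrial muscle, the fast conduction system and arterial endothelium. It was above background on all 14 arrays and ranged from 6.70 to 7.27. In C57Bl/6N the sham arrays read 6.86, 6.90 and 6.92 and the angiotensin II arrays 7.27, 7.24, 6.91 and 6.93. Replicates 1 and 2 with angiotensin II lay above the sham arrays and the other pair among or next to them. The C57Bl/6J group means were 6.79 ± 0.10 (SD, n = 3) in sham and 6.93 ± 0.19 (SD, n = 4) with angiotensin II. The responses were 0.14 in C57Bl/6J (95% interval -0.12 to 0.40) and 0.19 in C57Bl/6N (95% interval -0.06 to 0.45), and 0.17 on average (95% interval -0.01 to 0.35; limma adjusted p = 0.207). None was called, and neither were the substrain differences of 0.11 in sham and 0.16 with angiotensin II. The Gja5 row combines several probes, judging from its detection p-values, so probes that disagree could not be seen.

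Markers of the cell types known for Gja5 were counted beside it. Of 8 tested atrial genes, 1 was called higher in C57Bl/6J and 1 higher and 2 lower in C57Bl/6N. Over all tested rows, 1.37% were called in C57Bl/6J and 17.4% in C57Bl/6N, with 7.92% called lower there. The atrial medians were 0.43 in C57Bl/6J and -0.10 in C57Bl/6N. The summed level of the 9 atrial genes in the table, Nppa among them, was 17907 to 25711 in C57Bl/6J sham and 39157 to 44288 with angiotensin II. In C57Bl/6N it was 11412 to 33519 in sham and 47188 to 49993 with angiotensin II. A sum follows its brightest genes, and in C57Bl/6N it rose while the median fell. Of 7 tested conduction system genes, none was called in either response, with medians of 0.03 in C57Bl/6J and -0.08 in C57Bl/6N, and 3 of the 10 in the table, Cacna1g and Cpne5 among them, were above background on no array. Of 8 tested arterial endothelial genes, 1 was called lower in C57Bl/6N, with a median of -0.17. The part of these cell types in the Gja5 values was not tested.

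Gjc1 encodes connexin 45, the connexin of the nodes and of the early heart tube. It was above background on all 14 arrays. The C57Bl/6J sham arrays read 6.68, 6.81 and 7.25 and the angiotensin II arrays 7.91, 7.25, 6.89 and 6.82. The highest of these, 7.91, came from replicate 1 with angiotensin II, the array that stood apart. In C57Bl/6N the sham arrays read 7.18, 7.06 and 7.37 and the angiotensin II arrays 6.93, 7.34, 7.08 and 7.25, so the groups overlapped in both substrains. The responses were 0.30 in C57Bl/6J (95% interval -0.16 to 0.77; limma adjusted p = 0.538) and -0.05 in C57Bl/6N (95% interval -0.51 to 0.42; limma adjusted p = 0.911). Without the array that stood apart the C57Bl/6J value was 0.07. The substrain differences of Gjc1 were 0.29 in sham and -0.06 with angiotensin II, and neither was called.

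**Figure D3:**
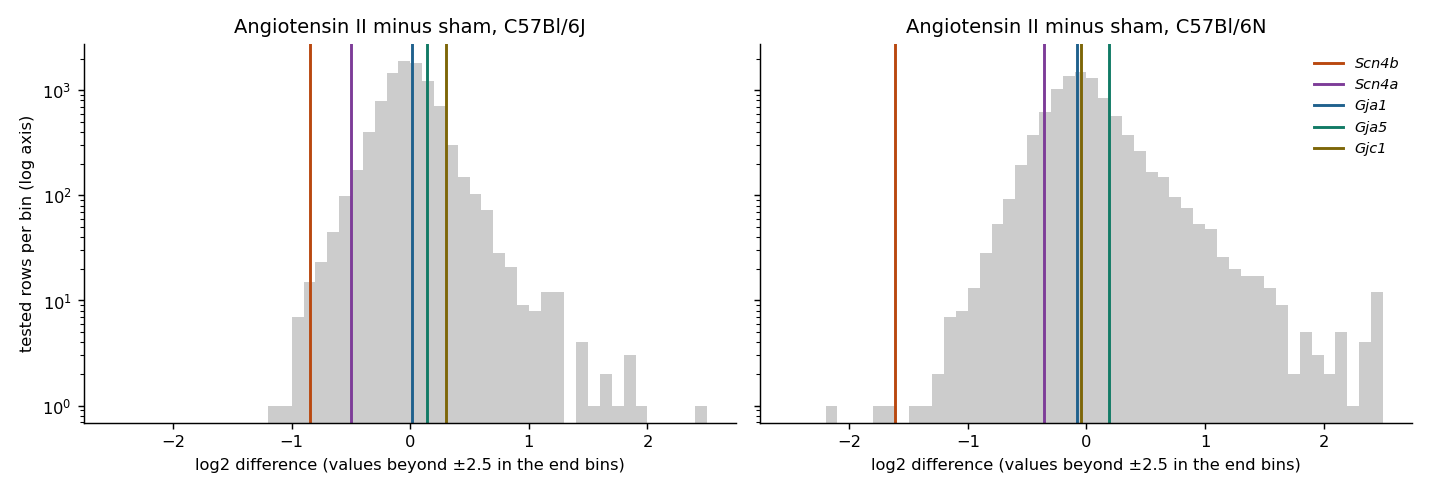
Histograms of the log2 change with angiotensin II (horizontal axis) of all 9408 tested rows in each substrain, with the number of rows on a log axis (vertical) and a line for each tested gene. Scn4b sits in the lower tail at -0.85 in C57Bl/6J and -1.61 in C57Bl/6N, while Gja1, Gja5 and Gjc1 lie between -0.08 and 0.30, around the median of all rows (-0.01 and -0.04).

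Genes of 4 related lists were tested in the same fit, and their counts stand beside 1.37% of all rows called in C57Bl/6J and 17.4% in C57Bl/6N. For the averaged response that share was 15.8%, and between the substrains with angiotensin II it was 9.24%. Of the other connexin and pannexin genes, 19 of 20 were in the table, 6 were tested and Panx1 was the 1 called. Panx1 forms channels in the cell membrane through which ATP leaves the cell. It read 5.93, 5.91 and 6.55 on the C57Bl/6N sham arrays and 6.63, 6.85, 6.60 and 6.95 with angiotensin II. The treated arrays all lay above the sham arrays, by little in the case of sham replicate 3. Panx1 rose by 0.63 ± 0.15 on the log2 scale in C57Bl/6N (SE; limma adjusted p = 0.0092). Its value in C57Bl/6J was 0.61 (adjusted p = 0.055) and the averaged rise was 0.62 (adjusted p = 0.00124). The size in C57Bl/6N and on average depended on the processing, at 0.09 for both with background inferred from all rows and 0.39 for both with no background correction, past the threshold in each case. The C57Bl/6N call was lost without sham replicate 1 (0.0526) or 2 (0.0517). Gja4, a connexin of arterial endothelium, was above background on all arrays and had values of -0.02 in C57Bl/6J and 0.04 in C57Bl/6N, signs that changed with array weights. Gja6 had a value of -0.29 in C57Bl/6N (adjusted p = 0.0827). The list's median change was -0.06 in C57Bl/6J and 0.03 in C57Bl/6N.

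Among sodium channel partners and regulators, 18 of 24 genes were tested. None was called in C57Bl/6J, and in C57Bl/6N 1 was higher and 2 were lower, with medians of 0.09 and 0.08. Cav3, the scaffold protein of muscle caveolae, rose by 0.57 ± 0.10 (SE; limma adjusted p = 0.0015). Ank2, an ankyrin that anchors membrane transporters, fell by 0.40 (adjusted p = 0.0225), and Fgf13, an intracellular factor that binds sodium channels, fell by 0.38 (adjusted p = 0.023). Both lower calls were lost without C57Bl/6N sham replicate 1 (Ank2 0.0832, Fgf13 0.098), angiotensin II replicate 1 (0.0724 and 0.0739) or angiotensin II replicate 3 (0.0751 and 0.0563). On average over the substrains Cav3, Mapre1, Fgf13 and Ank2 were called, the first pair higher and the second pair lower. In the averaged response 15.8% of all tested rows were called. Mapre1, a protein of microtubule tips, had an averaged rise of 0.22 (adjusted p = 0.0356) that was lost without any one of 10 arrays (adjusted p up to 0.0795), and the averaged call of Ank2 was lost without any one of 7 arrays (up to 0.0818). Cav3 was also 0.31 higher in C57Bl/6N than in C57Bl/6J with angiotensin II (adjusted p = 0.0423), a call lost without any one of 11 arrays (up to 0.126).

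**Figure D4:**
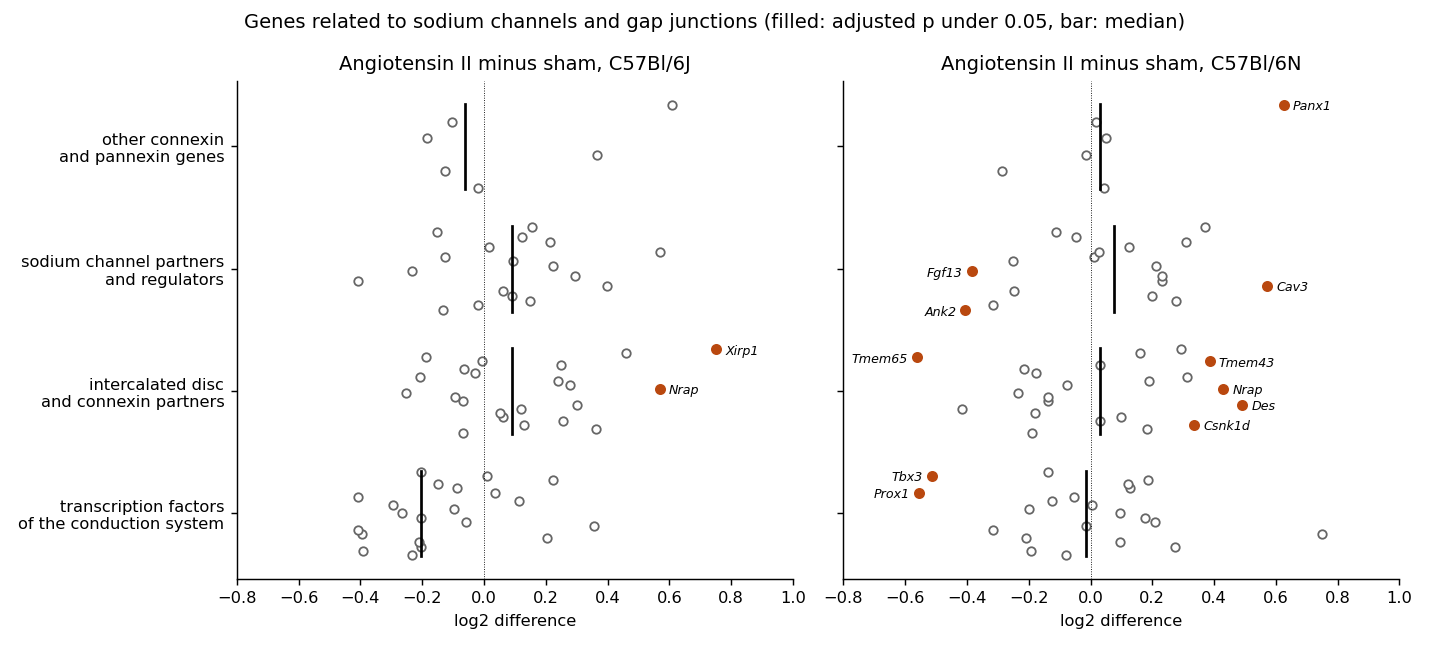
Log2 change with angiotensin II (horizontal axis) of each tested gene of 4 related lists (vertical axis) in C57Bl/6J and C57Bl/6N, filled and named where the limma adjusted p was under 0.05, with a bar at each list's median. In C57Bl/6N Panx1 (0.63) and Cav3 (0.57) lie to the right, and Prox1 (-0.56) and Tmem65 (-0.56) to the left.

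Of genes of the intercalated disc, the end-to-end contact where Gja1 sits, and of connexin partners, 22 of 28 were tested. In C57Bl/6J 2 were called higher: Xirp1, an actin-binding repeat protein (0.75, adjusted p = 0.0102), and Nrap, which anchors actin at the disc (0.57, adjusted p = 0.0223). The Xirp1 call was lost without C57Bl/6J sham replicate 2 (0.0631), and the Nrap call without sham replicate 1 (0.101), 2 (0.109) or 3 (0.0702). In C57Bl/6N 4 were called higher and 1 lower, 5 of 22, where 17.4% of all tested rows were called. They were Tmem43, a protein of the inner nuclear envelope (0.39, adjusted p = 0.00771), Des, the muscle intermediate filament (0.49, adjusted p = 0.0116), and Tmem65, a membrane protein reported to bind Gja1 (-0.56, adjusted p = 0.00802). The other pair were Csnk1d, a kinase that phosphorylates Gja1 (0.34, adjusted p = 0.0119), and Nrap (0.43, adjusted p = 0.015), and both calls were lost without C57Bl/6N sham replicate 2 (0.0508 and 0.0632). Csnk1d was 0.17 with background inferred from all rows. The medians of the list were 0.09 in C57Bl/6J and 0.03 in C57Bl/6N. With angiotensin II, Tmem43 was 0.37 higher in C57Bl/6N than in C57Bl/6J (adjusted p = 0.0146), a call lost without C57Bl/6N angiotensin II replicate 1 (0.0645) or 3 (0.0587). On average 6 of the 22 were called higher and 1 lower, where 15.8% of all tested rows were called. These were led by Nrap (0.50), Xirp1 (0.52) and Des (0.40).

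Of transcription factors of the conduction system, many of which regulate connexin and sodium channel genes, 21 of 28 were tested. None was called in C57Bl/6J, and in C57Bl/6N Prox1 fell by 0.56 (limma adjusted p = 0.00747) and Tbx3 by 0.51 (limma adjusted p = 0.011). Prox1 is a homeobox factor of the developing heart, and Tbx3 is known as a repressor of Gja1 and Gja5 in nodal cells. With angiotensin II both were lower in C57Bl/6N than in C57Bl/6J, Prox1 at -0.52 (adjusted p = 0.015) and Tbx3 at -0.60 (adjusted p = 0.00819), and Irx3 was higher at 0.73 (adjusted p = 0.00153). In that comparison 9.24% of all tested rows were called. Irx3 is a factor of the fast conduction system that raises Gja5 there in mice. With background inferred from all rows the C57Bl/6N changes shrank to -0.29 for Prox1 and -0.08 for Tbx3, and the substrain differences to -0.27 and -0.10. With no background correction Tbx3 was -0.34 and -0.40. The Prox1 substrain call was lost without C57Bl/6N angiotensin II replicate 1 (0.0662) or 3 (0.0613). On average Hey2, a repressor made in ventricular muscle, was called lower (-0.36, adjusted p = 0.0319). Hey2 exceeded background on 10 of 14 arrays, and its call was lost without any one of 8 arrays (adjusted p up to 0.085). With background inferred from all rows Hey2 was -0.03, and with no background correction it was -0.20. The medians were -0.20 in C57Bl/6J and -0.01 in C57Bl/6N.

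The rows most like Scn4b and Scn4a over the 14 arrays were found by the root mean square difference between log2 profiles, each centred on its own mean. Scn4b itself varied by 0.98 around its mean. The nearest rows were 2410137M14Rik (0.45), the row named CES3 in the file (0.53) and Egf, an epidermal growth factor (0.55). Their C57Bl/6N changes were -1.07, -1.15 and -0.68, and in C57Bl/6J they were -0.61, -0.13 and -0.31. For Scn4a, with a spread of 0.35, the nearest rows were Ogdh, an enzyme of the citric acid cycle, Chkb, a choline kinase, and Dut, which hydrolyses dUTP, each at 0.19.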

How the data were processed

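Column-purified total RNA, treated with DNase I, was turned into biotin-labelled cRNA for Illumina arrays, per the labels' protocols. The authors deposited a linear intensity and a detection p-value for 18138 gene rows on 14 arrays, and a second table of 18132 rows whose intensities matched a quantile normalisation of the first. For the array model, scanner software and probe-to-gene summary, no source used here gives details, and the number of arrays limits the precision. Replicate numbers follow list order, and no batch was given.

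With limma 3.58.1 in R 4.3.3, intensities were background-corrected (normexp), raised by an offset of 16, quantile-normalised and put on the log2 scale; the deposited values themselves are not log2. Background was inferred from the detection p-values of the 14215 rows lying on an even grid, read as 1 probe each; rows off it, Gja5 and Scn3b included, were read as several. Above background means a signal no lower than that of the dimmest detected 1-probe row. The 9408 rows detected (p-value under 0.05) on 3 or more arrays entered 1 fit of 4 group means (10 residual and 4.8 prior degrees of freedom; Benjamini-Hochberg over all rows; threshold 0.05). Fold changes include the offset, which shrinks those of dim genes. Background correction, normalisation and the fit were tested on simulated data. The background values and the rows kept came from the real arrays, so inferring the background and filtering by detection were not tested. There, 38% of 1.5-fold, 62% of 2-fold and 88% of 3-fold changes were recovered in the C57Bl/6N response. Of the unchanged rows, 15 were called, beside 19, 31, 44 and 45 recovered of 50 each at 1.5-fold, 2-fold, 3-fold and 4-fold. Names were matched to RefSeq's GRCm38.p6 table: 14309 rows by current symbol and 2732 by an older name, while 1097 kept the file's name.

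All 7 genes are named whatever their values. Of each related list the text names the 2 genes with the lowest adjusted p in the C57Bl/6N response and up to 3 called elsewhere, plus other connexin or pannexin genes above background on all arrays. It also names the 3 rows nearest each called gene; Nrap, Csnk1d and Mapre1 complete small counts and were chosen after their values were seen. Some items are not reported here. The genes and lists were chosen with earlier results of these data known. Alternatives covered background, normalisation, offset, filters, the deposited table, the fit and each array left out.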

Additional observations from a re-analysis of the deposited data

Results flagged for a closer look

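Scn4b in C57Bl/6N angiotensin II replicate 3 lay far from the other 3 arrays of its group. It read 6.33 on the log2 scale, against 7.16, 7.16 and 7.23, a gap of 0.916 of the group's whole range, above Dixon's 95% critical value. Without that array the C57Bl/6N response of Scn4b was -1.40 (limma adjusted p = 0.000914) in place of -1.61. The check covered 14 combinations of gene and group, and chance flags about 1 in 20. The same array had a median of -0.24 over the cardiomyocyte genes and 0.95 over the macrophage genes, on the log2 scale relative to the sham arrays. These medians do not set it apart: replicate 1 of that group had -0.24 and 1.01, with Scn4b at 7.16. Replicate 2 had -0.05 and 0.64, and replicate 4 had -0.05 and 0.17.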

How the results depend on the processing

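No paired analysis was possible because replicate numbers were given in list order and link no samples. In C57Bl/6J the count of called genes was 0 and became 1 (Scn4b) with background from all rows, median scaling or array weights, and 0 to 1 over single arrays left out. On average it was 2 and became 1 (Scn4b) with background from all rows, no background correction, the deposited table, an offset of 50, no filter, a stricter filter or array weights, and 1 to 2 over arrays left out. The other 4 counts kept their value in every setting and array omission tried. The cause of these shifts was not tested. Signs turned for small differences. With background from all rows the difference of the Scn4b responses was 0.13. With array weights Gja1 was -0.077 in C57Bl/6J, 0.0169 in C57Bl/6N and 0.094 for the difference of responses. Gjc1 in C57Bl/6N was 0.0111 with median scaling and 5e-04 with array weights, and its difference under angiotensin II was 0.0552 and 0.169. Gja4 was 0.052, -0.0299 and -0.0819 (C57Bl/6J, C57Bl/6N, difference of responses) with array weights and -0.0178 on average with median scaling. Panx1 between sham groups was -8e-04 with array weights. Over arrays left out, Gja1 ran from -0.0639 to 0.0739 in C57Bl/6J, -0.156 to 0.0394 in C57Bl/6N, -0.172 to 0.0219 for the difference and -0.0717 to 0.0284 on average. The Gja5 difference of responses ran from -0.0066 to 0.142. Gjc1 ran from -0.119 to 0.0348 in C57Bl/6N and -0.194 to 0.17 between substrains with angiotensin II. Gja4 ran from -0.125 to 0.0902 in C57Bl/6J, -0.0147 to 0.088 in C57Bl/6N, -0.0464 to 0.168 for the difference, -0.0407 to 0.067 on average and -0.0188 to 0.196 between sham groups. Panx1 ran from -0.0955 to 0.227 for the difference and -0.152 to 0.171 between sham groups. Median scaling changed the split of all calls in C57Bl/6J from 94 higher and 35 lower to 44 and 48, in C57Bl/6N from 889 and 745 to 819 and 472, and under angiotensin II between substrains from 513 and 356 to 599 and 168. Calls of related genes ended, by adjusted p, with median scaling for Fgf13 (0.0605), Mapre1 (0.109), Nrap in C57Bl/6J (0.0553) and Prox1 between substrains (0.0518). They ended with only the compared groups fitted for Ank2 (0.0504), Nrap in C57Bl/6J (0.0541) and, between substrains, Cav3 (0.0854), Tmem43 (0.0517) and Prox1 (0.0593). They ended without a filter for the average of Hey2 (0.0587), and with background from all rows for Hey2 (0.0925). Counts over the related lists moved in 17 of 216 settings and 49 of 336 array omissions. Signal near background limits Scn4a, Scn3b and Scn2b.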
